A study of Arabidopsis thaliana with 12 samples.

Results

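The genes described here are 8 genes of Arabidopsis thaliana that are grouped by their type as enzymes that cut or build glycans. Glycans are sugar chains, such as the polymers of plant cell walls. A role of these genes in the cell wall was not tested. They were taken as every probe that the platform annotation assigns to 1 gene only, for GH9B11, GH9B16 and AT4G18180 on the hydrolase and lyase side and for CSLA01, AT4G19900, AT4G38040, AT3G57630 and AT4G37420 on the transferase side. Each gene had 1 such probe, and the 8 belong to 691 genes that have such a probe. All 8 were bright enough on at least 1 array to be kept by the filter on dim probes. The genes were chosen by their type and with their measured differences between the flu mutant and wild type (WT) known. Those differences are therefore given as a description, with no p per gene. How many of them pass a threshold, in the main fit and under alternatives, is given with the share or count of all probes that does. Nothing is read from it.

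RNA was measured on 6 arrays of the flu mutant, which lacks the FLU protein, and 6 of WT. All plants were of the Landsberg ecotype and were sampled 30 min into the light that followed a dark period of 12 h, so the arrays show 1 time and no course over time. FLU holds back chlorophyll synthesis in darkness. In flu plants its pigment precursor builds up overnight and generates singlet oxygen once the plants are lit. The labels name no organ, age or dose of light, and do not state if a group's 6 arrays hold RNA of separate plants. Any spread given here is therefore between arrays and may be technical. In RNA of whole tissue, fewer cells of a type and less RNA per cell cannot be told apart. Of 17 marker genes of leaf, flower, root, pollen, seed, guard cell, epidermis and trichome, 0 had a probe of their own, so the organ was not checked. A FLU probe was not analysed here.

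A plant cell wall is a network of cellulose fibres, hemicelluloses such as xyloglucan and mannan, and pectin. Glycosyltransferases build the non-cellulosic polymers, mostly in the Golgi, by moving sugars from activated nucleotide sugars onto a growing chain. Hydrolases and lyases act on the chains afterwards and loosen, trim or degrade them. GH9 genes encode endoglucanases, which cut chains of beta-1,4-linked glucose internally. The mannan synthase family, to which CSLA01 is assigned, makes the mannan or glucomannan backbone. For the other 5 genes only the type used in the grouping is given, since the gene table holds no description of them.

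Intensities are in the arbitrary linear units of the deposited table, in which each array reaches 100 at its highest probes, after quantile normalisation. A probe is called above the floor where it exceeds the 25th percentile of all values, 0.2496. Lower values were raised to the floor before log2 was taken, which shortens the differences of dim probes. Arrays 1 and 2, 3 and 4, and 5 and 6 of a group deviated from the group mean more alike than arrays of different pairs did. Each such pair was averaged to 1 replicate, giving 3 pair means per group. Levels of different probes are not compared, because a probe's brightness also depends on its own sequence and length.

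In flu, 6 of the 8 genes had lower intensities than in WT and 2 had higher ones. The hydrolase and lyase side held 2 lower genes, GH9B11 and GH9B16, and 1 higher gene, AT4G18180. On the transferase side 4 genes, CSLA01, AT4G38040, AT3G57630 and AT4G37420, were lower and 1, AT4G19900, was higher. For all 8, every flu pair mean lay on the same side of every WT pair mean, without overlap, which was also so for 50.5% of the 3128 probes tested. By limma with Benjamini-Hochberg adjustment at a threshold of 0.05, all 8 passed, 2 higher and 6 lower, against 38.9% of all probes in either direction, 17.5% higher and 21.4% lower. Without flu arrays 3 and 4, CSLA01 and AT4G38040 did not pass, and 6 did. Over all 3128 probes the count fell from 1216 to 840 in that fit. Without flu arrays 1 and 2 CSLA01 did not pass, without flu arrays 5 and 6 AT4G38040 did not, and 7 did in each case. The counts over all probes there were 909 and 900, so calls were lost among all probes too. Since the difference itself entered the choice of the genes, nothing is read from these counts.

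**Figure D1:**
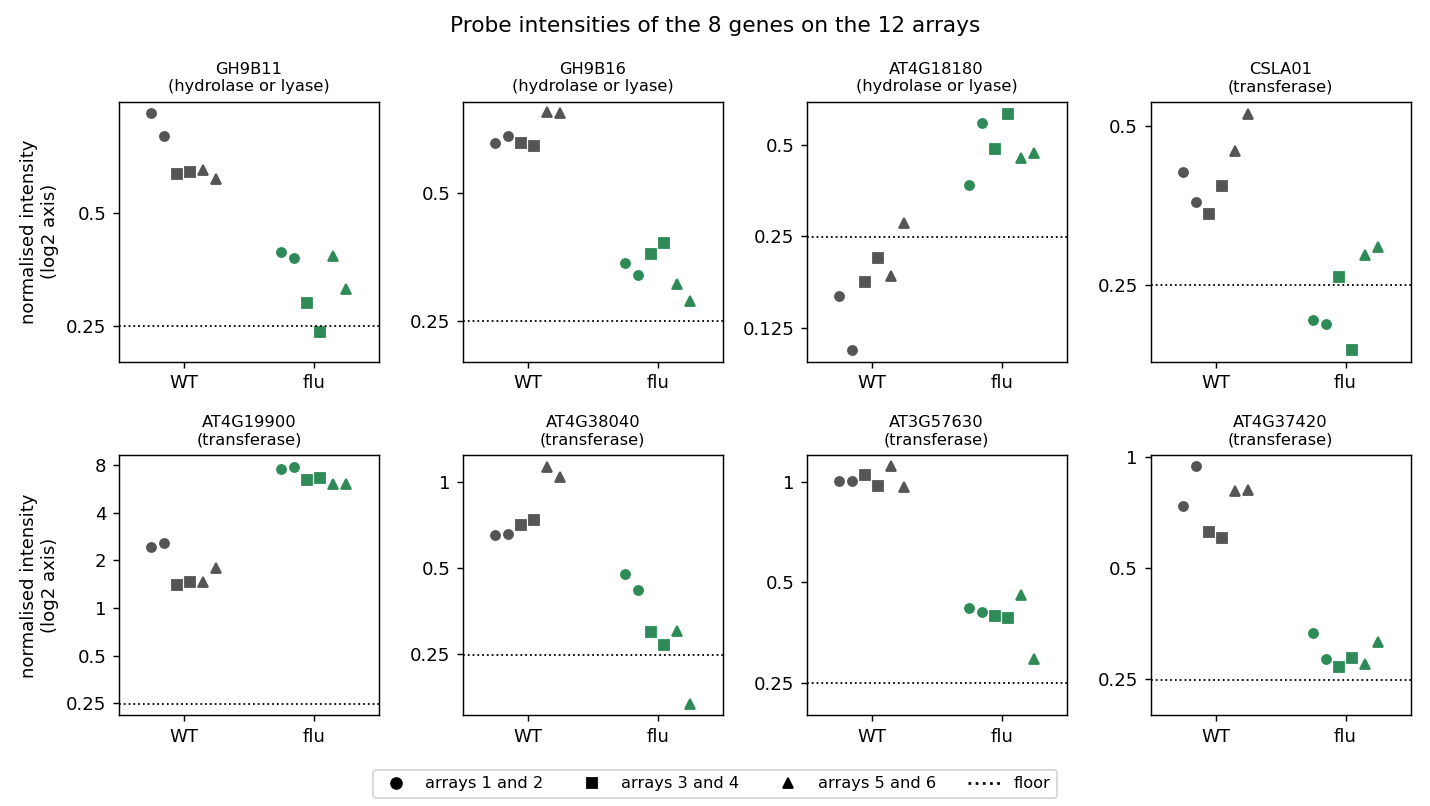
Normalised intensity of the 8 genes (log2 axis, arbitrary units) on each of the 12 arrays, WT in grey and flu in green, with 1 marker shape for each pair of arrays and the floor of 0.2496 as a dotted line. AT4G19900 lies far above the floor in both groups, AT4G18180 is under it on 5 of 6 WT arrays, and CSLA01 is under it on 3 of 6 flu arrays.

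GH9B11 (AT2G44560) gave intensities from 0.616 to 0.927 on the 6 WT arrays, with a median of 0.648, and from 0.240 to 0.393 on the 6 flu arrays, with a median of 0.346. No flu array reached the lowest WT array, and flu array 4, at 0.240, fell just under the floor. Over the 3 pair means it averaged 0.713 ± 0.131 in WT against 0.333 ± 0.063 in flu (mean ± SD, n = 3). The log2 difference was -1.10 (SE 0.20), that is 2.14-fold lower in flu.

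GH9B16 (AT4G38990), of the same endoglucanase family, lay between 0.645 and 0.775 in WT, median 0.670, and between 0.278 and 0.381 in flu, median 0.331. All 12 arrays were above the floor, and the groups were well apart. The pair means averaged 0.698 ± 0.066 in WT against 0.331 ± 0.039 in flu (mean ± SD, n = 3), a log2 difference of -1.08 (SE 0.14). The WT arrays 5 and 6, at 0.775 and 0.771, were the 2 brightest, whereas for GH9B11 the WT arrays 1 and 2 were, at 0.927 and 0.801. The 2 endoglucanase genes thus had like differences between the groups but varied differently among the arrays of a group.

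Besides these 2 genes, the search of gene names and synonyms for 24 hydrolase words found GH9B8 and GH9B12, which are of the same family, and the search for 20 transferase words found CSLA01 alone. It missed AT4G18180 and the transferase genes of the 8 other than CSLA01. What it found therefore does not stand for all genes of either type. Of the 2 endoglucanase genes that are not among the 8, 0 passed over all probes by limma, and at an unadjusted p under 0.05 there was 1, GH9B8. GH9B8 (AT2G32990) was above the floor on 1 flu array and 4 WT arrays, and its log2 values differed by -0.32 (SE 0.13) at an adjusted p of 0.102 by limma. It passed under 3 of 16 alternatives (limma adjusted p from 0.019 to 0.879), among them the floor at the 10th percentile, where the difference was -1.03. GH9B12 (AT2G44570), the direct neighbour of GH9B11 in the genome, was above the floor on 1 flu array and 2 WT arrays, and its log2 values differed by -0.08 (SE 0.11) at an adjusted p of 0.634 by limma. For GH9B12 most values of both groups were at the floor, so a difference was not detectable at this brightness. The median log2 difference of GH9B8 and GH9B12 was -0.20, against -0.04 over all probes tested. With GH9B11 and GH9B16, which were chosen with their differences known, it was -0.70 over the 4 genes.

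AT4G18180, of pectin lyase type, was the 1 gene of the hydrolase and lyase side with higher intensities in flu. It lay between 0.369 and 0.634 in flu, median 0.477, and between 0.106 and 0.276 in WT, median 0.182. All 6 flu arrays were above the floor but only 1 of the 6 WT arrays was, WT array 6 at 0.276. The log2 difference of 0.96 (SE 0.12), or 1.94-fold, thus rests on a WT level set almost wholly by the floor. It was 1.44 with the floor at the 10th percentile and 0.44 with the floor at the 40th.

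CSLA01 (AT4G16590) gave from 0.341 to 0.527 in WT, median 0.397, and from 0.189 to 0.295 in flu, median 0.237. The groups did not overlap, but flu arrays 1, 2 and 4 were under the floor. Its log2 difference of -0.62 (SE 0.15), or 1.54-fold lower in flu, was the smallest in size of the 8. With the floor at the 40th percentile it shrank to -0.18.

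AT4G19900, of glycosyltransferase type, was the 1 transferase gene with higher intensities in flu and the 1 gene of the 8 whose probe was well above the floor on every array. It stood between 6.08 and 7.72 in flu, median 6.52, and between 1.39 and 2.58 in WT, median 1.62. In both groups arrays 1 and 2 were the 2 brightest: 7.54 and 7.72 in flu, and 2.42 and 2.58 in WT. The log2 difference was 1.91 (SE 0.23), a 3.75-fold higher level, and stood at 1.61, 2.20 and 1.92 in the 3 pairs of arrays with the same numbers. Of all 3128 differences 98.7% were below it.

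AT4G38040 varied most among pairs. Its WT arrays ran from 0.653 to 1.13, median 0.726, and its flu arrays from 0.168 to 0.480, median 0.300. Flu was lower in each pair, with a log2 difference of -0.55 for arrays 1 and 2 but of -1.99 for arrays 5 and 6, the WT arrays 5 and 6 being the brightest and flu array 6, under the floor, the dimmest. The overall log2 difference of -1.30 (SE 0.27) came with the largest SE of the 8.

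AT3G57630 was the steadiest of the lower genes. WT lay between 0.967 and 1.11, median 1.004, and flu between 0.295 and 0.457, median 0.402, with flu array 6 the lowest. The pair means averaged 1.02 ± 0.019 in WT against 0.394 ± 0.018 in flu (mean ± SD, n = 3), and the log2 difference was -1.38 (SE 0.10), or 2.60-fold lower in flu. The 3 pairs gave -1.28, -1.36 and -1.50.

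AT4G37420 ran from 0.601 to 0.942 in WT, median 0.773, and from 0.270 to 0.334 in flu, median 0.284. All flu arrays lay close to the floor and close to each other, while WT arrays 3 and 4, at 0.626 and 0.601, were below the other WT arrays. The log2 difference was -1.35 (SE 0.15), 2.54-fold lower in flu. With the floor at the 40th percentile it was -1.04.

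**Figure D2:**
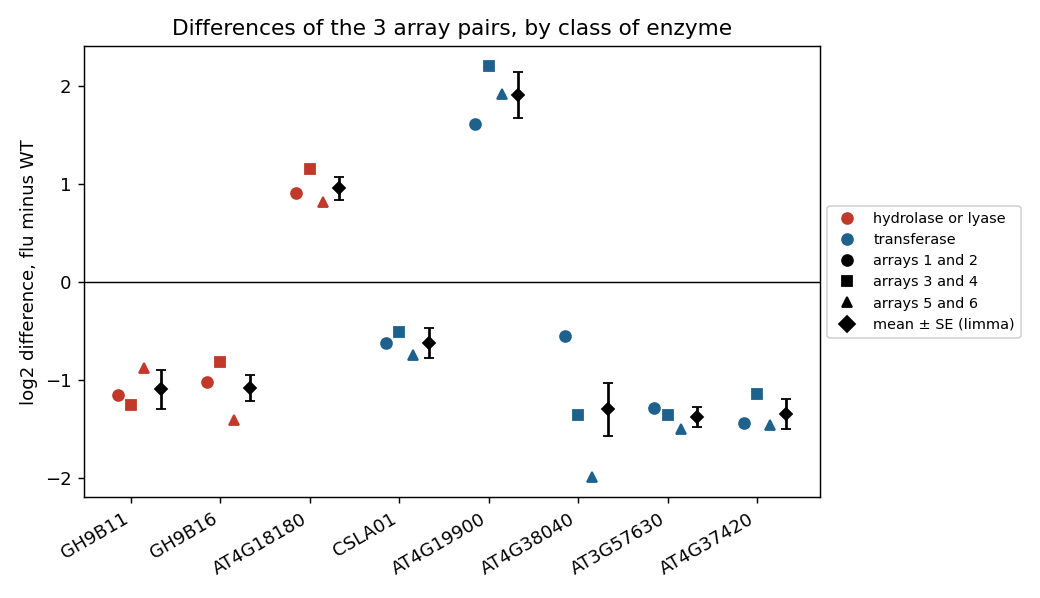
Log2 difference of flu minus WT for each gene in the 3 pairs of arrays with the same numbers (coloured markers, hydrolase or lyase in red and transferase in blue) and overall (black diamond, mean ± SE by limma). Each class holds genes on both sides of 0, and AT4G38040 spreads most, from -0.55 to -1.99.

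Set against each other, the hydrolase and lyase genes and the transferase genes did not separate. Their median log2 differences were -1.08 (3 genes) and -1.30 (5 genes). The first minus the second was 0.22, with -0.40, 0.33 and 0.59 in the 3 pairs of arrays (SD 0.51), so the spread between pairs exceeded it and its sign was not the same in each. Each class had 1 gene higher in flu and the others lower.

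Around each lower gene, probes with neighbouring numbers also had a median log2 difference below 0. It ran from -0.79 around CSLA01 to -0.14 around GH9B16, where 11 of 20 neighbours were lower in flu. Over the 17 tested probes within 12 numbers of CSLA01, all 17 had lower values in flu, with a median log2 difference of -0.79, and 10 of the 17 were at or below CSLA01 itself. As a correction, the median log2 level of the tested probes within 12 numbers, the gene included, was subtracted from each pair mean. The median over all tested probes was then added back. With the median of the neighbours removed in this way, the sign of CSLA01 turned to 0.36, so the direction of CSLA01 depends on this step. For AT3G57630, which stands among the neighbours of CSLA01, 14 of 14 neighbours were lower in flu, at a median of -0.43, but 0 of them were as low as the gene. Likewise 0 of 17 neighbours were as low as AT4G38040, 1 of 18 as low as AT4G37420, 2 of 19 as low as GH9B11 and 2 of 20 as low as GH9B16. Of the last 2, 1 is a probe that the annotation assigns to GH9B16 and 2 other genes together, so it is not separate from GH9B16. Opposite to their surroundings stood the 2 higher genes. Of the neighbours of AT4G19900 and AT4G18180, 16 each, 0 reached the gene's difference, and their medians were -0.59 and -0.35.

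**Figure D3:**
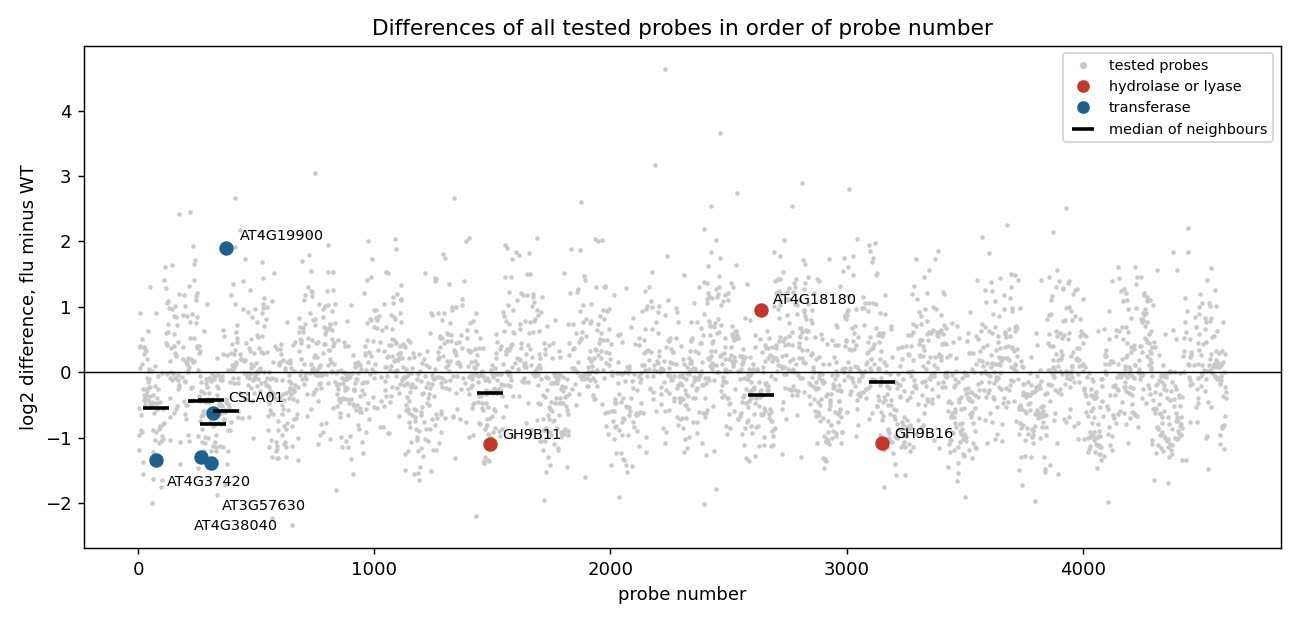
Log2 difference of flu minus WT (vertical axis) against probe number (horizontal axis) for the 3128 tested probes in grey, with the 8 genes coloured by class and the median of each gene's neighbours as a black bar. The differences of all probes swing up and down along the numbering, the 5 transferase probes lie between numbers 76 and 371, and all 8 bars are below 0.

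The median of the neighbours was below 0 for all 8 genes, against 50.7% of all tested probes. The correction above removes the median level, the gene included, and not this median of differences. After it, the log2 difference was -0.38 for GH9B11, -0.89 for GH9B16, 1.04 for AT4G18180, 2.41 for AT4G19900, -0.79 for AT4G38040, -0.53 for AT3G57630 and -0.62 for AT4G37420. The mean over probes whose numbers leave the same remainder on division by a fixed period, found in an earlier analysis of these differences, was also below 0 around all 8 genes, from -0.53 to -0.26, and below 0 for 53.2% of the probes that have one. That mean leaves the gene itself out. The matching correction subtracted the mean log2 level of such probes, the gene included, from each pair mean. The mean over all tested probes was then added back. After this correction the 8 kept their signs, and the difference was -0.70 for GH9B11, -0.58 for GH9B16, 1.26 for AT4G18180, -0.33 for CSLA01, 2.05 for AT4G19900, -0.80 for AT4G38040, -0.79 for AT3G57630 and -0.87 for AT4G37420. What produces the dependence on probe number was not tested.

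**Figure D4:**
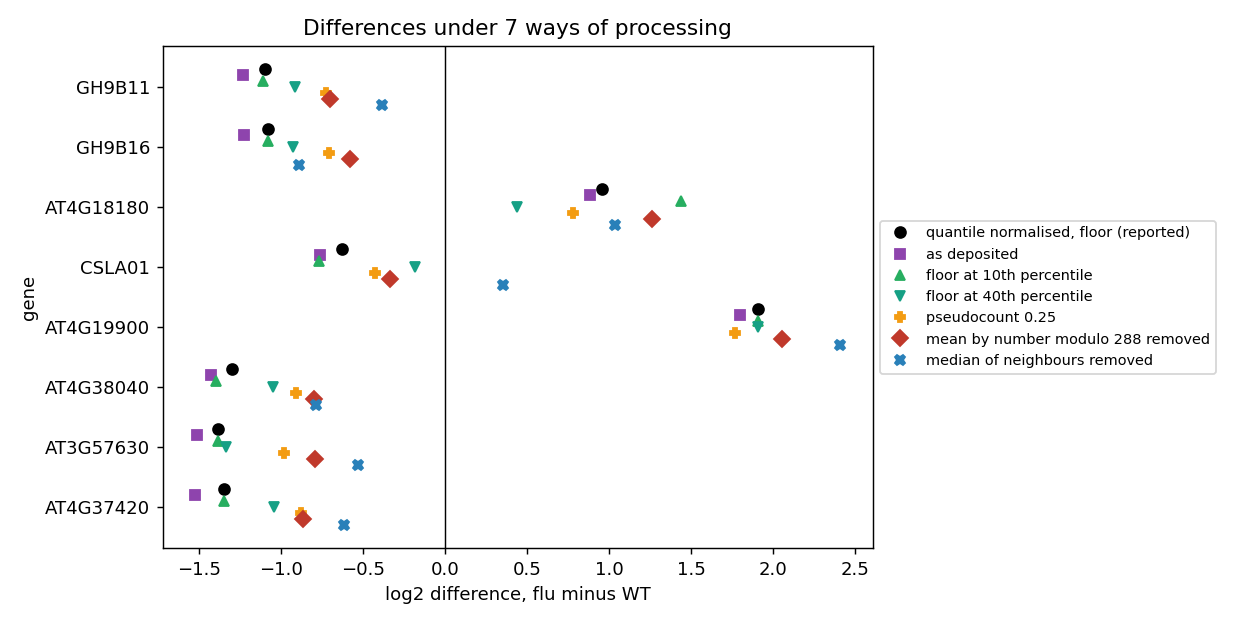
Log2 difference of flu minus WT (horizontal axis) of the 8 genes under 7 ways of processing the same intensities, 1 marker each. Of the 8 genes, CSLA01 is the 1 with a marker on the other side of 0, at 0.36 with the median of its neighbours removed, and AT4G19900 stays between 1.77 and 2.41.

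Among 613 probes of other single genes, the profile over the 12 arrays most like that of each gene, by the root mean square difference of log2 values centred on their mean, was that of AT4G00870 for GH9B11 (0.15), AT4G20760 for GH9B16 (0.15) and AT1G29700 for AT4G18180 (0.20). For the transferase side it was AT4G35980 for CSLA01 (0.14), AT2G32470 for AT4G19900 (0.22), AT4G33500 for AT4G38040 (0.15), GLDH for AT3G57630 (0.15) and AT1G02020 for AT4G37420 (0.18). The median of this measure over the 613 probes lay between 0.45 and 1.04. The difference between the groups makes up much of each profile, so likeness here mostly means a like difference. The hydrolase and transferase words found 0 of the 8 nearest genes. Among the 613 probes they found only those of GH9B8 and GH9B12, so the type of the nearest genes was not tested.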

How the data were processed

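The values are the deposited intensities, linear, of 3439 probes on 12 arrays. For the authors' scanner, background correction and scaling, the labels hold no entry. Intensities span 0 to 100, each array has 1 to 3 probes at 100, and array sums lie between 3247 and 3350. Array medians were 0.426 to 0.442 in flu and 0.443 to 0.491 in WT. The number of arrays limits the precision.

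The genes, lists and processing were chosen with earlier results of these data known. Arrays were quantile normalised, values under the 25th percentile were raised to it, and values were put on a log2 scale. Left out were 311 probes that no array showed above this floor. Within a group, deviations from the group mean correlated over probes at 0.21 to 0.68 within arrays 1 and 2, 3 and 4, or 5 and 6, and at -0.55 to -0.04 otherwise, so each such pair was averaged. Taking deviations from the mean of the same arrays pushes these correlations down, so the values below 0 are in part built in. Pairs of the same number in flu and WT also deviated together, at 0.46, 0.38 and 0.26. This is taken from the data, and no label states that the numbers pair the samples. The SEs given above are from the fit without the pair number. With the pair number as a block, the SE went from 0.23 to 0.16 for AT4G19900. For GH9B16 it went the other way, from 0.14 to 0.16. With limma 3.58.1 (R 4.3.3), pair means were fitted on the group alone, with a two-sided moderated test adjusted by Benjamini-Hochberg over 3128 probes.

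Probes were named through the platform annotation and the TAIR10.1 gene table. A single gene is listed for 692 probes (690 found in the gene table), several for 870 and none for 1877. No coordinates are printed, as no source used here states the probes' build. The genes named are the 8, the other genes found by words in symbols and synonyms, and for each of the 8 the gene with the most similar profile, other than those 8. Alternatives were other normalisations, floors and filters, the 12 arrays as separate samples, the pair number as a block, 2 corrections for probe number and each pair left out in turn.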

Additional observations from a re-analysis of the deposited data

Results flagged for a closer look

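In 22 groups of 6 arrays, 5 held 1 array far from the others. Chance flags about 1 in 20 where the 6 values are independent and untied. Here arrays resembled each other in pairs and some values were tied at the floor, so the count cannot be set against that rate. AT3G57630 was lowest in flu array 6, at 0.295, with a gap to the next array of 0.648 of the group's range on the log2 scale. For AT4G18180 in WT array 6, at 0.276, GH9B12 in flu array 2, at 0.255, and GH9B8 in flu array 6, at 0.257, that share was 1, because the other 5 arrays were at the floor. UGT74D1, named after its values were seen, stood at 0 on WT array 1, with a share of 0.703.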

How the results depend on the processing

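Over 17 alternatives for each of the 8 genes, 112 of 136 values moved by less than the spread between pairs, 23 moved by more with the same sign, and 1 turned its sign, CSLA01 at 0.36 with the median of neighbouring probe numbers removed. Other filters, the 12 arrays as separate samples and the replicate block cannot change a log2 difference. Their values are among the 112 by construction and did not move at all. The count of probes past the threshold, 1216, was between 1042 and 1732 under the 11 alternatives with all arrays, and between 840 and 1299 with a pair left out. The replicate block gave 1371 probes and changed no call of the 8 genes, GH9B8 or GH9B12. As deposited, the median of all probes was -0.12 against -0.04. Of the 4 genes found by hydrolase words, 2 passed, GH9B11 and GH9B16, both chosen with their differences known, and 0 of the other 2, against 38.9% of all probes. With the floor at the 10th percentile, the pseudocount or the 12 arrays as separate samples 3 passed, GH9B8 added, and with the median of neighbours removed 1, GH9B11 lost. Over all probes 1276 of 3282, 1260 of 3128, 1732 of 3128 and 1186 of 3128 passed in these fits, in the same order. The 1 gene found by transferase words, CSLA01, was lost (0 passed) with the floor at the 40th percentile, with either correction for probe number, and without flu arrays 1 and 2 or 3 and 4 (log2 differences -0.58 and -0.60). Over all probes 1042 of 2868 passed with that floor. Of 3128 probes, 1148 passed with the mean by probe number removed, and 909 and 840 without those flu arrays. With a pair left out the count was 0 to 1 for transferase and 2 to 2 for hydrolase words. The call of AT4G38040 was lost when flu arrays 3 and 4, or 5 and 6, were left out, with log2 differences of -1.20 and -1.17. The class difference of 0.22 ran from 0.077 to 0.32 with a pair left out. GH9B12 turned its sign to 0.14 and 0.34 with the mean by probe number or the median of neighbours removed, and to 0.0049 without WT arrays 1 and 2; GH9B8 turned to 0.043 and UGT74D1 to 0.16 with the median of neighbours removed. GH9B12 and GH9B8 were not tested with the stricter filter, nor GH9B12 with the floor at the 40th percentile. Apart from the floor and the correction for probe number, whose effects follow from their construction, the cause of these changes was not tested. Brightness limits the dim probes: GH9B12, GH9B8 and the WT level of AT4G18180 lie mostly at the floor.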

Other observations

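The 2 probes that the annotation assigns to several endoglucanase genes at once name no gene, and their values are not given above. Both were among all probes tested. The probe shared by GH9B16 and 2 other genes also counts among the neighbours of GH9B16. The probe shared by GH9B11 and 3 other genes lay between 0.198 and 0.342 in flu and between 0.650 and 0.922 in WT, and its log2 difference of -1.38 (SE 0.12) became -0.83 once the median of neighbouring probe numbers was removed and -1.14 with the mean by remainder removed. The probe shared by GH9B16 and 2 other genes lay between 0.1505 and 0.223 in flu and between 0.754 and 0.979 in WT, and its log2 difference of -1.76 (SE 0.11) became -1.37 and -1.04 in the same order. For both, the arrays of the groups did not overlap.

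UGT74D1, a UDP-glucosyl transferase by its synonym that the fixed words missed because of its spelling, was chosen after its values were seen. It stood at 0 on array 1 of both groups. Its log2 values differed by -0.45 (SE 0.18) at an adjusted p of 0.095 by limma, and it passed with the replicate block (limma adjusted p = 0.044), as under 4 of 16 alternatives (0.021 to 0.956).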
